A study of Mus musculus with 18 samples.

Results

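Snap-frozen mouse hippocampus was compared with fresh hippocampus across all genes of the deposited count table, with 3 libraries in each state. The table lists 18389 genes, and 14528 of them passed the filter on low counts and were tested. The members of the comparison were taken by their labels, 6 of the 18 libraries of the study, so that no measured value chose them. The study sequenced poly(A) RNA of hippocampus and cerebral cortex, each snap-frozen, vitrified or fresh, with 3 libraries per tissue and state. Snap-frozen hippocampus had been dropped straight into liquid nitrogen, and fresh hippocampus had no treatment. The 3 vitrified hippocampus libraries, from tissue loaded with cryoprotectants and rewarmed, entered the estimate of the spread, and the 3 snap-frozen and 3 fresh cortex libraries served as the same contrast in another tissue. The sources used here give neither strain, age, sex nor the number of animals. As nothing ties the replicates to separate animals, a p-value here speaks only of how far these libraries scatter, and that scatter may be technical.

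The hippocampus is a fold of the telencephalic cortex. Excitatory granule cells of the dentate gyrus and pyramidal cells of fields CA1, CA2 and CA3 make up most of its neurons, and they use the vesicular glutamate transporter Slc17a7. The thalamus, the habenula, the pretectum and the midbrain lie directly beneath it, and many of their excitatory neurons use Slc17a6 instead. During development each of these regions is set out by its own transcription factors, many of which stay on in adult neurons. Freezing in liquid nitrogen stops transcription and RNA decay, whereas in dissected tissue left unfrozen both can go on. Immediate early genes, which react within minutes, are therefore commonly read in such comparisons.

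Total counts were 16632142 to 16696505 in the snap-frozen and 16908624 to 17022164 in the fresh libraries, and 16608 to 16641 and 16312 to 16376 genes had counts above 0. Libraries of a group were very alike, with a common coefficient of variation beyond counting noise of 1.69%, and small differences passed the test. At an adjusted p under 0.05, 9036 genes differed (62.2% of those tested), 4578 of them higher (31.5%) and 4458 lower (30.7%) in snap-frozen tissue. Scaling by library totals shifted the median of all genes by 0.12 on the log2 scale and gave 6784 higher and 2867 lower. The median size among the genes called was 0.37 on the log2 scale. Snap-frozen and fresh libraries did not overlap in 9469 of the genes tested (65.2%), 4798 higher (33%) and 4671 lower (32.2%) in snap-frozen tissue. A lack of overlap, given below for single genes, is thus common to most genes. Larger changes were fewer, at 1231 genes over 1 on the log2 scale (8.47%), and mostly upward: 935 genes rose by over 1 on the log2 scale (6.44%) and 296 fell by over 1 (2.04%), and past 2 there were 230 and 28. Of the 935, 333 averaged under 1 CPM in fresh tissue. Markers of the hippocampal fields were present in all 6 libraries, and the snap-frozen libraries held besides them transcripts known from neighbouring brain regions that were at or near 0 in the fresh ones, described first. CPM here are counts scaled to the library total and its TMM factor, as is usual in edgeR, and a level of 3 counts is 0.172 to 0.184 CPM. Means are given ± SD over the 3 libraries of a group, and log2 fold changes, snap-frozen minus fresh, ± SE.

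The largest rises were in transcription factors of the thalamus, pretectum and midbrain, whose transcripts were at or near 0 in fresh hippocampus. Barhl1, a homeodomain factor of the diencephalon, midbrain and hindbrain (ENSMUSG00000026805.14, chromosome 2, GRCm38), was at 17.2, 15.98 and 15.6 CPM in the 3 snap-frozen libraries and had 0 counts in all 3 fresh libraries, at least 265-fold higher against a floor of 3 counts over the group. Tfap2d, an AP-2 factor of the midbrain (ENSMUSG00000042596.7, chromosome 1), was at 39.8, 37.1 and 37.2 CPM in snap-frozen tissue, against 1 count over the fresh libraries, a ratio of 1858 (95% interval 333 to 73440). Shox2, a homeodomain factor of thalamic and collicular neurons, was at 39.8, 41.1 and 40.5 CPM in snap-frozen tissue and had 2 counts over the fresh libraries, a ratio of 989 (95% interval 274 to 8173). In all of Barhl1, Tfap2d and Shox2, the 3 snap-frozen libraries lay close together. The vitrified libraries had a mean of 0 CPM of Barhl1, 0.0211 CPM of Tfap2d and 0.0209 CPM of Shox2.

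The other 7 of the 10 largest rises were at or near 0 in fresh hippocampus as well. Tfap2b, the neighbour and paralogue of Tfap2d, averaged 21.1 ± 0.386 CPM in snap-frozen and 0.0819 ± 0.0939 CPM in fresh hippocampus (log2 fold change 7.89 ± 0.22). Irx2, an Iroquois homeodomain factor, was at 20.6 ± 0.941 CPM snap-frozen against 0.164 ± 0.154 CPM fresh. Pou4f1, a POU factor of the medial habenula and midbrain, was at 11.9 ± 1.15 CPM snap-frozen against 0.102 ± 0.0707 CPM fresh, and its paralogue Pou4f2 at 15.1 ± 0.614 CPM snap-frozen against 0.123 ± 0.162 CPM fresh. These 4 genes had 4 to 8 counts over the 3 fresh libraries and 623 to 1102 over the snap-frozen ones. Gata3, a factor of midbrain inhibitory neurons, averaged 7.58 ± 0.469 CPM in snap-frozen tissue and had 1 count over the fresh libraries, a ratio of 370.5 (95% interval 66.1 to 14670). Sox14, a factor of inhibitory neurons of the thalamus and midbrain, averaged 6.91 ± 0.288 CPM in snap-frozen tissue and had 3 counts over the fresh libraries, a ratio of 113 (95% interval 38.2 to 548). Mab21l2, which is needed in the developing eye and midbrain, averaged 9.80 ± 0.701 CPM snap-frozen against 0.102 ± 0.0936 CPM fresh. The largest rises, and the largest falls below, were picked among genes whose libraries do not overlap between the groups. Their lack of overlap is thus not a result.

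**Figure D1:**
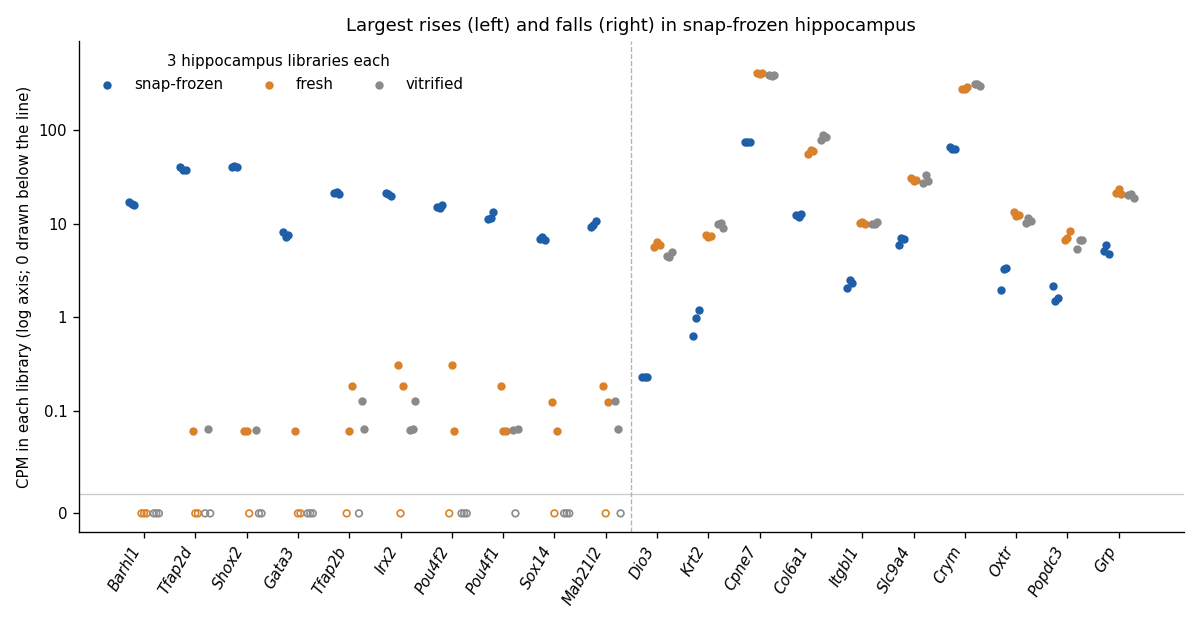
Level in each hippocampus library, in CPM on a log axis with 0 drawn below the line, of the 10 genes with the largest rise and the 10 with the largest fall; each point is 1 library of the snap-frozen, fresh or vitrified group. The rising genes are at 6.64 CPM or above in every snap-frozen library and at 0.307 CPM or below in every fresh library. Rising and falling genes were picked among genes that do not overlap between these groups.

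Whole families of patterning factors were then read out, a list of 14 families that was chosen after these values were seen. Of its 65 members in the table, 45 passed the filter, 34 rose and 8 fell. Since 22 of the 45 averaged under 1 CPM in fresh and at or over 1 CPM in snap-frozen tissue, and so passed the filter through the group where they were high, nothing is read from the count of 34. Among the 22 members at or over 1 CPM in fresh tissue, 11 rose and 8 fell. The 20 members that did not pass averaged at most 0.537 CPM in snap-frozen and 0.327 CPM in fresh tissue. Those that rose included En1 (10.2 ± 0.811 CPM snap-frozen against 0.123 ± 0.123 CPM fresh) and En2 (11.4 ± 0.243 CPM snap-frozen against 1.15 ± 0.128 CPM fresh), the engrailed factors of the midbrain and anterior hindbrain, and Pax7 of the dorsal midbrain (11.5 ± 0.221 CPM snap-frozen against 0.368 ± 0.163 CPM fresh). Otx2, a factor of forebrain, midbrain and choroid plexus, was at 15.8, 13.6 and 15.97 CPM in snap-frozen and 0.245, 0.307 and 0.553 CPM in fresh libraries. Ebf3, Six3 and Zic1 rose as well, to 27.2 ± 1.42, 11.7 ± 0.472 and 34.6 ± 2.24 CPM in snap-frozen tissue, against 1.13 ± 0.0357, 0.389 ± 0.0359 and 5.13 ± 0.369 CPM in fresh tissue. The Iroquois factors Irx1, Irx3, Irx5 and Irx6 had log2 fold changes of 4.67, 4.62, 4.30 and 3.05. The LIM factors Lhx1 and Lhx5, of diencephalon and cerebellum, had 3.47 and 3.73.

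The 8 members that fell are known from the telencephalon. Emx1 and Emx2, which pattern the cortex and hippocampus, fell to 4.58 ± 0.888 and 10.1 ± 0.424 CPM in snap-frozen tissue, against 8.14 ± 1.21 and 15.6 ± 1.41 CPM in fresh tissue. Lhx2 was at 39.9 ± 2.49 CPM snap-frozen against 65.2 ± 1.91 CPM fresh, and Pax6 at 5.05 ± 0.584 CPM snap-frozen against 7.47 ± 0.547 CPM fresh. Lhx6, Dlx1, Dlx2 and Dlx5, which mark inhibitory neurons born in the ventral telencephalon, had log2 fold changes of -1.54 ± 0.09, -0.71 ± 0.09, -0.72 ± 0.18 and -1.31 ± 0.24. Outside these families, and also chosen after their values were seen, Nr2f1 and Nr2f2, nuclear receptors of the caudal cortex and hippocampus, were at 29.5 ± 1.79 and 9.54 ± 0.389 CPM in snap-frozen and 56.0 ± 1.60 and 29.3 ± 1.05 CPM in fresh tissue. Both were lower in every snap-frozen library than in any fresh library.

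**Figure D2:**
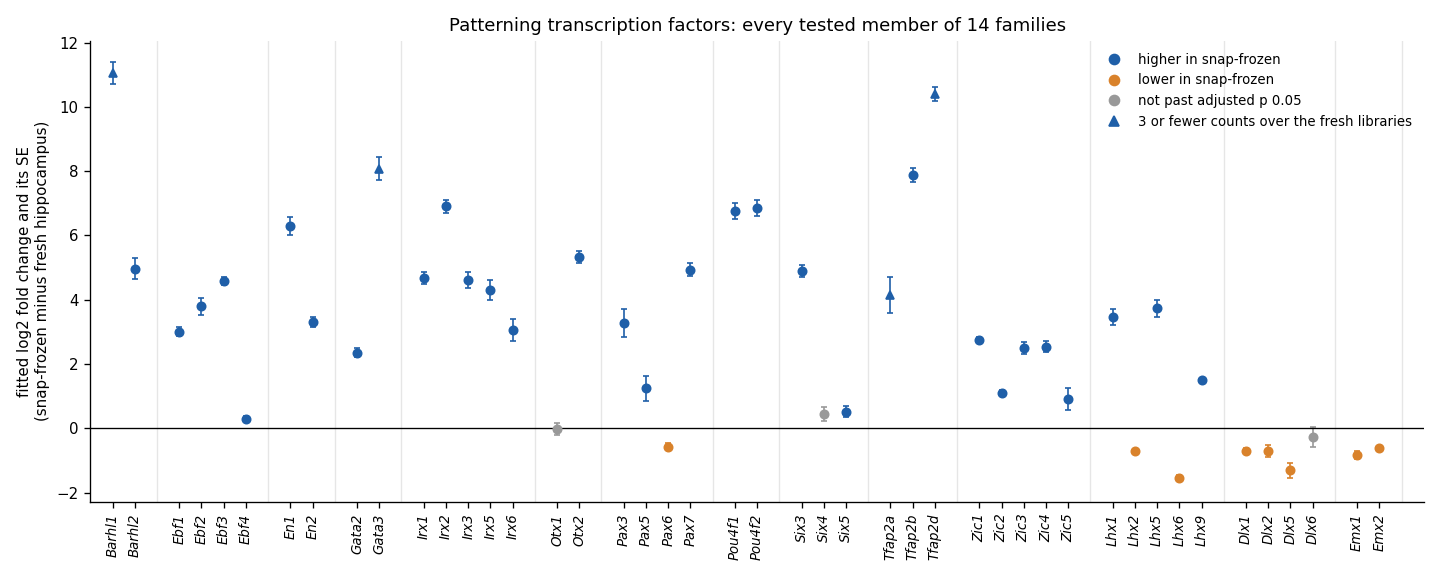
Fitted log2 fold change and its SE, snap-frozen minus fresh hippocampus, for the 45 tested members of 14 families of patterning transcription factors, grouped by family along the horizontal axis. 34 members lie above 0 and 8 below it past the threshold; triangles mark members with 3 or fewer counts over the fresh libraries, whose fitted value depends on the prior count.

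Transcripts that mark the hindbrain, the cerebellum and monoamine neurons were read in lists again chosen after the values were seen. None of the 15 Hox genes in the table, which set out the hindbrain and spinal cord, passed the filter, and their summed level was 0.288 to 0.405 CPM in snap-frozen and 0.368 to 0.552 CPM in fresh libraries. Of 6 cerebellar genes, 4 were tested, of which 3 rose and 0 fell (median 0.89). The 6 together were at 41.1 to 43.1 CPM in snap-frozen and 20.1 to 20.7 CPM in fresh libraries. Cbln1 and Car8 rose to 9.80 ± 1.09 and 7.83 ± 0.785 CPM, against 3.54 ± 0.280 and 4.79 ± 0.0575 CPM in fresh tissue. Gabra6, of cerebellar granule cells, had 0 counts in all 6 libraries. Pcp2, of Purkinje cells, averaged 0.0577 ± 0.0999 CPM in snap-frozen tissue and 0 counts in fresh tissue. Slc6a4 and Slc6a3, the serotonin and dopamine transporters, averaged 0.0192 ± 0.0333 and 0.288 ± 0.115 CPM in snap-frozen and 0.102 ± 0.0709 and 0.389 ± 0.0933 CPM in fresh tissue. Th, the first enzyme of catecholamine synthesis, was at 2.40 ± 0.155 CPM snap-frozen against 1.33 ± 0.583 CPM fresh. Ddc rose to 10.3 ± 0.940 CPM, against 6.32 ± 0.473 CPM in fresh tissue. Of 12 genes of monoamine and acetylcholine neurons, 6 were tested, of which 2 rose and 0 fell. All 7 genes of glycine receptors and transporters in the table rose (median 1.60), among them Glra1 at 2.72 ± 0.269 CPM snap-frozen against 0.0819 ± 0.0939 CPM fresh and Glra3 at 26.1 ± 1.72 CPM snap-frozen against 3.68 ± 0.498 CPM fresh. Glra1 passed the filter through the group where it was high, and nothing is read from the count of 7.

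Markers of thalamic neurons rose with the factors. Of 13 tested, 11 rose and 0 fell, with a median log2 fold change of 1.21, where the median over all genes tested was 0.01. Zic1 and Zic4 belong to this list and to the patterning families, so that the lists are not independent. Tcf7l2, a mediator of Wnt signalling that stays on in thalamic and habenular neurons (ENSMUSG00000024985.19, chromosome 19), was at 151, 140.1 and 136 CPM in snap-frozen and 5.58, 3.99 and 4.24 CPM in fresh libraries (log2 fold change 4.95 ± 0.07, adjusted p = 3.19e-45, edgeR). Lef1, another marker of the list, was at 17.1, 18.4 and 16.5 CPM in snap-frozen and 2.27, 2.70 and 2.83 CPM in fresh libraries. Slc17a6, the vesicular glutamate transporter of subcortical neurons (ENSMUSG00000030500.6, chromosome 7), was at 282, 268 and 273 CPM in snap-frozen and 12.4, 11.8 and 12.2 CPM in fresh libraries (4.50 ± 0.05). In all 3 genes the snap-frozen libraries lay close together and far above the fresh ones. Gbx2, a factor of the developing thalamus, did not pass the filter, at 0.0192 ± 0.0333 CPM in snap-frozen tissue and 0 counts in fresh tissue. The summed level of the 14 thalamic markers was 694 to 729.5 CPM in snap-frozen and 152 to 162 CPM in fresh libraries, and its part in the other differences was not tested. Of 8 habenular markers, 4 rose and 2 fell (median 1.32), at a summed level of 46.7 to 52.0 CPM in snap-frozen and 46.6 to 49.6 CPM in fresh libraries. Chrna3, Chrnb3 and Chrnb4, nicotinic receptor subunits of the habenula, reached 7.92 ± 0.669, 3.05 ± 0.907 and 1.32 ± 0.230 CPM in snap-frozen tissue, against 0.266 ± 0.197, 0.532 ± 0.277 and 0.205 ± 0.0940 CPM in fresh tissue. Together with Pou4f1, given above, they are the 4 that rose. All 4 averaged under 1 CPM in fresh tissue and passed the filter through the group where they were high. Nothing is therefore read from the count of 4. Gpr151 and Tac2, which are strongly expressed in the habenula, were at 0.557 ± 0.177 and 1.48 ± 0.469 CPM in snap-frozen and 0.777 ± 0.0711 and 1.35 ± 0.164 CPM in fresh tissue and did not pass the test.

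Channel lists held rises and falls, with 30 higher and 33 lower of 77 potassium channel genes and 7 higher and 12 lower of 20 sodium, calcium and HCN channel genes. Some single genes for channels, vesicles and filaments rose by over 1 on the log2 scale. Syt2, a fast calcium sensor of transmitter release, was at 289, 299 and 289 CPM in snap-frozen and 32.9, 35.0 and 33.2 CPM in fresh libraries (3.12 ± 0.04). Kcnab3, a subunit of voltage-gated potassium channels, was at 105 ± 2.14 CPM snap-frozen against 24.8 ± 0.840 CPM fresh, and Kcnt1, a sodium-activated potassium channel, at 134 ± 4.70 CPM snap-frozen against 48.0 ± 2.06 CPM fresh. Scn1a, a sodium channel that shares reads with other genes in the deposited table, was at 251 ± 2.38 CPM snap-frozen against 112 ± 2.66 CPM fresh, and Nefh, the heavy neurofilament chain, at 203 ± 6.01 CPM snap-frozen against 76.6 ± 0.312 CPM fresh. No snap-frozen library of these 5 genes overlapped a fresh one. Pvalb, a calcium buffer of fast-spiking inhibitory neurons, was at 92.3, 93.5 and 97.2 CPM in snap-frozen and 31.8, 28.7 and 32.1 CPM in fresh libraries.

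Markers of hippocampal excitatory neurons were lower in snap-frozen tissue. All 14 tested general markers fell, with a median of -0.99, and their summed level was 5463 to 5525 CPM in the snap-frozen and 10860 to 11060 CPM in the fresh libraries. Slc17a7, the vesicular glutamate transporter of cortical and hippocampal neurons (ENSMUSG00000070570.5, chromosome 7), was at 719, 722 and 729.7 CPM in snap-frozen and 1742, 1750.4 and 1756 CPM in fresh libraries (-1.27 ± 0.02, adjusted p = 6.67e-45, edgeR). Camk2a, the kinase of excitatory synapses, was at 2353 ± 32.6 CPM snap-frozen against 4662 ± 96.4 CPM fresh (-0.99 ± 0.02). Sv2b, a synaptic vesicle protein, was at 245 ± 6.91 CPM snap-frozen against 627 ± 6.40 CPM fresh, and the neurogenic factor Neurod6 at 129 ± 2.41 CPM snap-frozen against 254 ± 7.35 CPM fresh. Over the whole list, log2 fold changes lay between -1.48 and -0.57. In bulk tissue, fewer cells of a type and less RNA per cell cannot be told apart.

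Most markers of CA1, CA3 and the dentate gyrus fell, in unequal size, and those of CA2 were mixed. In CA1, 7 of 8 markers fell and 1 rose (median -0.82). Fibcd1, a membrane protein of CA1 cells, was at 98.5, 97.0 and 97.8 CPM in snap-frozen and 282, 282 and 279.9 CPM in fresh libraries, whereas Wfs1, an endoplasmic reticulum protein of CA1 cells, was at 109, 113 and 110.3 CPM in snap-frozen and 139.6, 137 and 132 CPM in fresh libraries. The groups do not overlap in either gene, and the log2 fold change was -1.52 ± 0.03 for Fibcd1 and -0.30 ± 0.03 for Wfs1. In CA3, 7 of 8 fell and none rose (median -0.96), among them Dkk3, a secreted Wnt modulator, at 209 ± 1.20 CPM snap-frozen against 453 ± 8.53 CPM fresh, and Grik4, a kainate receptor subunit, at 44.2 ± 0.317 CPM snap-frozen against 91.3 ± 2.32 CPM fresh. In the dentate gyrus, 9 of 12 fell and 3 rose (median -0.55). Prox1, the factor that keeps granule cell identity, was at 87.6, 79.9 and 75.2 CPM in snap-frozen and 117, 116 and 120.2 CPM in fresh libraries (-0.54 ± 0.04), and Calb1, a calcium buffer, at 65.3 ± 0.942 CPM snap-frozen against 127 ± 4.33 CPM fresh. Of 8 CA2 markers, 4 fell and 2 rose, and scaling by library totals gave 3 higher and 1 lower. Rgs14 was at 63.0 ± 1.93 CPM snap-frozen against 132 ± 3.75 CPM fresh. Pcp4 went the other way, at 150.0 ± 4.16 CPM snap-frozen against 69.5 ± 2.38 CPM fresh. The summed level of the CA2 list was 319.8 to 331.5 CPM in snap-frozen and 287.2 to 299.2 CPM in fresh libraries. The sums of the CA1, CA3 and dentate lists were lower in snap-frozen tissue. No marker of these 4 lists was at 0 in the snap-frozen libraries.

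Inhibitory neuron markers split. 7 of 17 rose and 9 fell (median -0.27). The genes that make and pack GABA rose: Gad1 was at 529.8 ± 14.2 CPM snap-frozen against 353 ± 7.92 CPM fresh, Gad2 at 234 ± 2.35 CPM snap-frozen against 130.0 ± 1.19 CPM fresh and Slc32a1 at 111 ± 4.19 CPM snap-frozen against 64.0 ± 0.808 CPM fresh. The peptides of cortical and hippocampal interneurons fell: Sst was at 116 ± 1.60 CPM snap-frozen against 185 ± 3.96 CPM fresh, Cck at 153 ± 6.59 CPM snap-frozen against 275 ± 6.88 CPM fresh, Vip at 11.7 ± 0.842 CPM snap-frozen against 16.6 ± 1.52 CPM fresh and Npy at 28.8 ± 1.55 CPM snap-frozen against 36.4 ± 0.934 CPM fresh. Each of these 7 changes passed the test.

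**Figure D3:**
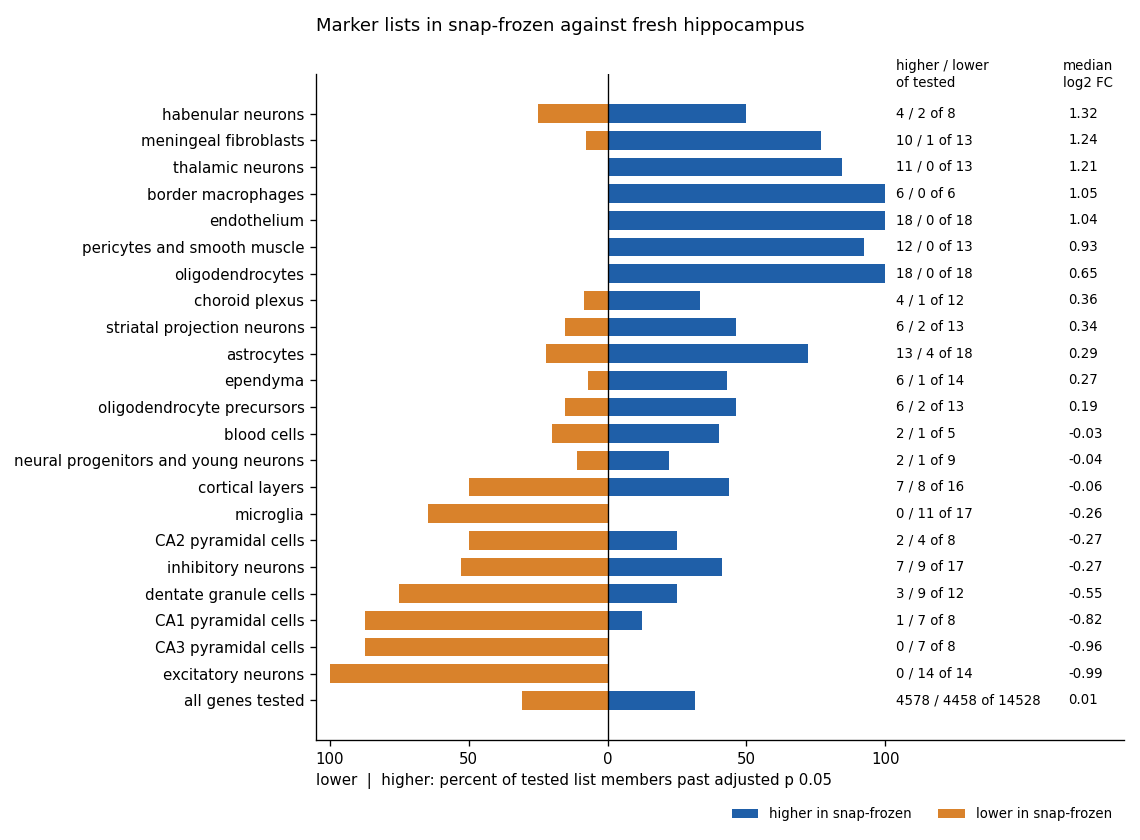
Share of the tested members of each marker list that was higher (right) or lower (left) in snap-frozen than in fresh hippocampus at an adjusted p under 0.05, with the counts and the median log2 fold change beside it; all genes tested are at the bottom. Endothelial and oligodendrocyte markers are wholly on the right and excitatory neuron markers wholly on the left, where 31.5% and 30.7% of all genes tested lie.

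Vascular and meningeal transcripts were higher in snap-frozen hippocampus. All 18 tested endothelial markers rose (median 1.04). Their summed level was 702 to 716 CPM in snap-frozen, 338 to 345 CPM in fresh and 547 to 561 CPM in vitrified libraries. For pericyte and smooth muscle markers the sums were 368 to 377, 207 to 213 and 212 to 218 CPM in that order. For meningeal fibroblast markers they were 699 to 716, 257 to 268 and 353 to 391 CPM. Cldn5, the tight junction protein of the blood-brain barrier, was at 36.2, 34.4 and 33.2 CPM in snap-frozen and 16.5, 16.02 and 16.1 CPM in fresh libraries, and Flt1, a receptor of vascular endothelial growth factor, at 73.7, 78.8 and 76.9 CPM in snap-frozen and 28.7, 28.9 and 27.5 CPM in fresh libraries. Neither gene overlapped between the groups. Among pericyte and smooth muscle markers 12 of 13 rose (median 0.93), with Rgs5 at 143 ± 3.33 CPM snap-frozen against 81.9 ± 2.17 CPM fresh and Acta2, smooth muscle actin, at 24.8 ± 1.67 CPM snap-frozen against 10.2 ± 0.325 CPM fresh. Of 13 meningeal fibroblast markers 10 rose and 1 fell (median 1.24). Ptgds, prostaglandin D synthase, was at 571 ± 10.3 CPM snap-frozen against 173 ± 6.13 CPM fresh and Col1a2 at 23.3 ± 0.861 CPM snap-frozen against 7.67 ± 0.163 CPM fresh, whereas the proteoglycan Dcn was at 16.4 ± 0.608 CPM snap-frozen against 29.7 ± 0.499 CPM fresh. All 6 tested border macrophage markers of 9 in the table rose, at a summed level of 23.5 to 27.2 CPM in snap-frozen and 11.5 to 12.7 CPM in fresh libraries. Haemoglobin transcripts, which stem from red blood cells in the vessels, changed little: Hba-a1, which shares reads with its near copy, was at 21.5 ± 0.271 CPM snap-frozen against 18.4 ± 0.945 CPM fresh, and Hbb-bs, whose reads are shared as well, at 31.3 ± 0.594 CPM snap-frozen against 35.1 ± 0.784 CPM fresh (-0.17 ± 0.05).

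Glial lists differed from each other. All 18 tested oligodendrocyte markers rose (median 0.65), with Mbp, a myelin protein, at 4679, 4706 and 4695 CPM in snap-frozen and 3116, 3105 and 2988 CPM in fresh libraries. Of 13 precursor markers 6 rose and 2 fell. Astrocyte markers rose in 13 and fell in 4 of 18 cases (median 0.29). Aqp4, the water channel of astrocyte endfeet, was at 246, 251 and 249.8 CPM in snap-frozen and 147, 148 and 145 CPM in fresh libraries, and Kcnj10, the inward rectifier that clears potassium, was at 446 ± 7.56 CPM snap-frozen against 247 ± 3.69 CPM fresh. Slc1a2 and Slc1a3, the glutamate transporters of astrocytes, moved the other way, at 2224 ± 30.7 and 434 ± 2.92 CPM in snap-frozen and 3090.3 ± 26.6 and 634 ± 7.55 CPM in fresh tissue. Slc6a11, the GABA transporter of astrocytes that is high in thalamus and brainstem, was at 654, 659 and 635 CPM in snap-frozen and 194, 198 and 193 CPM in fresh libraries (1.73 ± 0.02). Microglial markers fell in 11 of 17 cases and none rose (median -0.26). Cx3cr1, the fractalkine receptor, was at 44.4 ± 1.37 CPM snap-frozen against 53.5 ± 1.68 CPM fresh, and scaling by library totals gave 2 higher and 9 lower. Markers of the choroid plexus and ependyma gave fewer calls, with 4 higher and 1 lower of 12 choroid plexus genes and 6 higher and 1 lower of 14 ependymal genes. Ttr, the thyroxine carrier secreted by the choroid plexus, was at 6.51 ± 1.14 CPM snap-frozen against 6.42 ± 0.885 CPM fresh (0.02 ± 0.12, adjusted p = 0.91, edgeR).

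The 10 largest falls were smaller than the largest rises and included genes of several kinds. Dio3, the deiodinase that inactivates thyroid hormone (ENSMUSG00000075707.5, chromosome 12), was at 0.231, 0.231 and 0.229 CPM in snap-frozen and 5.64, 6.32 and 5.96 CPM in fresh libraries (-4.65 ± 0.24). Crym, which binds thyroid hormone in the cytosol, was at 66.0, 62.1 and 63.0 CPM in snap-frozen and 274, 277 and 290.0 CPM in fresh libraries. Cpne7, a calcium-dependent membrane-binding copine, was at 74.6, 73.4 and 75.1 CPM in snap-frozen and 406, 400.1 and 405 CPM in fresh libraries (-2.44 ± 0.03). In these 3 genes the gap between the groups, which were picked not to overlap, was larger than the spread within either group. Oxtr, the oxytocin receptor, was at 2.86 ± 0.773 CPM snap-frozen against 12.5 ± 0.774 CPM fresh, Grp, gastrin-releasing peptide, at 5.22 ± 0.607 CPM snap-frozen against 21.8 ± 1.59 CPM fresh, and Slc9a4, a sodium-proton exchanger, at 6.58 ± 0.551 CPM snap-frozen against 29.3 ± 1.03 CPM fresh. The other 4 of the 10 largest falls were Krt2, Col6a1, Itgbl1 and Popdc3, with log2 fold changes of -2.96, -2.26, -2.17 and -2.07.

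Most postsynaptic scaffold and vesicle release genes fell as well. Of 20 postsynaptic scaffold genes 18 fell and 1 rose (median -0.81). Camk2a is both in this list and among the excitatory neuron markers. Shank1, Shank2 and Shank3, the master scaffolds of the postsynaptic density, were at 231 ± 11.6, 129.6 ± 1.57 and 178 ± 6.31 CPM in snap-frozen and 444 ± 8.23, 247 ± 2.24 and 348 ± 4.45 CPM in fresh tissue. The gene that rose was Iqsec1, at 284 ± 5.50 CPM snap-frozen against 263 ± 1.82 CPM fresh. Of 23 vesicle release genes 15 fell and 6 rose: Syt1 fell to 947 ± 25.2 CPM, against 1607 ± 38.9 CPM in fresh tissue, while its paralogue Syt2, given above, rose.

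Receptor families had members that rose and members that fell. Among ionotropic glutamate receptors 9 of 16 fell and 4 rose, with the AMPA subunits Gria1 at 746 ± 8.31 CPM snap-frozen against 1330.3 ± 15.2 CPM fresh and Gria4 at 113 ± 2.99 CPM snap-frozen against 66.9 ± 1.93 CPM fresh. Grin2b, an NMDA receptor subunit, was at 304 ± 5.77 CPM snap-frozen against 691 ± 2.84 CPM fresh. Among GABA-A receptor subunits 8 of 15 rose and 7 fell, with Gabra5, a subunit typical of the hippocampus, at 143 ± 2.11 CPM snap-frozen against 247 ± 5.23 CPM fresh. Solute carriers rose in 123 and fell in 62 of 257 cases, 344 being in the table, and library totals gave 159 higher and 47 lower. Collagens rose in 22 and fell in 11 of 41 cases, with Col24a1 at 11.6 ± 1.19 CPM snap-frozen against 0.573 ± 0.154 CPM fresh and Col6a1 at 12.2 ± 0.565 CPM snap-frozen against 58.7 ± 2.65 CPM fresh.

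Immediate early genes are induced within minutes by calcium and cAMP signals, and many carry the cAMP response element (CRE) in their promoters, the site of the factor CREB. Promoters of 4 of them are shown, as examples of genes that were lower in snap-frozen hippocampus, Nr4a1, Fosb and Junb, and of one that was higher, Fos. The sequences are RefSeq promoters of build GRCm38.p6, 250 bases before to 50 bases after the transcription start, read 5′ to 3′ on the strand of the gene, and capitals mark TGACG, the core of the CRE, or its reverse complement CGTCA. Nr4a1 is at chr15:101266596-101266895 (plus strand), Fosb at chr7:19309996-19310295 (minus), Junb at chr8:84978699-84978998 (minus) and Fos at chr12:85473640-85473939 (plus).
Nr4a1: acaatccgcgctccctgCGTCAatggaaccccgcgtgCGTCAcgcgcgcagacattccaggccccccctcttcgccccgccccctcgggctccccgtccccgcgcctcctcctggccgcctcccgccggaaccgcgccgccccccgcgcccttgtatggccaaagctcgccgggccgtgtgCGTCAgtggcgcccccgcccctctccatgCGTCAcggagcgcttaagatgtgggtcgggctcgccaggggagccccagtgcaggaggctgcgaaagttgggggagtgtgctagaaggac
Fosb: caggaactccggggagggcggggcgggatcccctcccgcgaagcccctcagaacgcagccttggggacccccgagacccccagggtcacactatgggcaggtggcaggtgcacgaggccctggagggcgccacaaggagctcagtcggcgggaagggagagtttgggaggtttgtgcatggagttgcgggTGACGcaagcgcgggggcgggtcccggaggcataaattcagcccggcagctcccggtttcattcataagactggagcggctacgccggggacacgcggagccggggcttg
Junb: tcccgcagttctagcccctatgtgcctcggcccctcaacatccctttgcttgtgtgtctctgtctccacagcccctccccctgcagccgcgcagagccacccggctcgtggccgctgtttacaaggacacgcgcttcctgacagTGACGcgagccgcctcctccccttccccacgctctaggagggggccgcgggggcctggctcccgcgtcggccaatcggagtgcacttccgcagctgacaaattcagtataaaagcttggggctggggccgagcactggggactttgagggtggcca
Fos: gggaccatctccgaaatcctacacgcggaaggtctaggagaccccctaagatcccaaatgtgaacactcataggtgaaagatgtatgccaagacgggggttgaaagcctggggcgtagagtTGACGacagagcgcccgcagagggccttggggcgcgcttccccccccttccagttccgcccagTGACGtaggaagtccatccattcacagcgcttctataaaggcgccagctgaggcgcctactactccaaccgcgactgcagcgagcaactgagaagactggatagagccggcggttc
Of 8 immediate early genes looked up, 6 had a promoter in the table, and each of the 6 held TGACG on either strand, as did 20.8% of the 32851 mouse promoters in the table. Nr4a1 held 4 copies, Fos 2, and Fosb and Junb 1 each. The full palindrome TGACGTCA, which contains TGACG on both strands and is found in 1.79% of all promoters, and the CArG box of serum response factor, found in 1.63%, were not in these 6 windows. A match is a description of the letters and not of binding.

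Of 36 immediate early genes, 23 fell and 7 rose in snap-frozen hippocampus (median -0.37), and library totals gave 9 higher and 20 lower. Arc, a cytoskeletal protein of active synapses (ENSMUSG00000022602.14, chromosome 15), was at 63.9, 65.1 and 64.7 CPM in snap-frozen and 123, 123 and 124 CPM in fresh libraries (-0.93 ± 0.03, adjusted p = 3.54e-28, edgeR). Nr4a1, an orphan nuclear receptor with 4 copies of TGACG in its promoter, was at 33.1, 31.0 and 34.2 CPM in snap-frozen and 51.3, 57.1 and 53.6 CPM in fresh libraries (-0.72 ± 0.05). Both genes were lower in every snap-frozen library than in any fresh library. Fosb was at 6.01, 5.31 and 6.12 CPM in snap-frozen and 12.6, 12.2 and 10.9 CPM in fresh libraries, and Junb at 23.7, 25.2 and 26.4 CPM in snap-frozen and 45.3, 44.8 and 42.1 CPM in fresh libraries. These 2 did not overlap either. Egr3 and Egr4, zinc finger factors, were at 66.8 ± 0.890 and 13.6 ± 0.559 CPM in snap-frozen and 128 ± 1.91 and 22.4 ± 0.237 CPM in fresh tissue, Jun at 63.2 ± 3.21 CPM snap-frozen against 125 ± 1.85 CPM fresh and Homer1, a scaffold with an inducible short form, at 66.4 ± 2.89 CPM snap-frozen against 139 ± 1.76 CPM fresh. Fos, the partner of Jun in AP-1, went the other way at 12.5, 13.3 and 11.7 CPM in snap-frozen and 10.1, 9.02 and 7.99 CPM in fresh libraries (0.47 ± 0.09, adjusted p = 2.62e-05). Klf2 and Klf4, which endothelial cells also express, rose to 10.7 ± 0.619 and 6.98 ± 0.451 CPM, against 4.87 ± 0.232 and 2.25 ± 0.495 CPM in fresh tissue. Egr1 was at 109 ± 1.49 CPM snap-frozen against 114 ± 3.09 CPM fresh and did not pass (adjusted p = 0.0675), and Npas4, induced by calcium alone, was at 16.2 ± 0.688 CPM snap-frozen against 19.1 ± 0.323 CPM fresh, a fall that was lost with library totals (log2 fold change -0.12, adjusted p = 0.117). Markers of excitatory neurons, in which most of these genes are induced, fell by a median of 0.99 in the same libraries, and their part in the falls was not tested.

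Lists of stress and clock genes were read next. Of 22 heat shock genes 8 rose and 11 fell (median -0.06), or 10 higher and 7 lower with library totals (median 0.06), and Hspa1a, the inducible Hsp70 that shares reads with Hspa1b, was at 14.5 ± 1.06 CPM snap-frozen against 22.2 ± 1.77 CPM fresh. Hspa5, the chaperone of the endoplasmic reticulum, was at 348 ± 8.33 CPM snap-frozen against 430.4 ± 7.61 CPM fresh. Of 18 oxidative stress genes 11 rose and 1 fell, with Gpx1, glutathione peroxidase, at 67.9 ± 1.51 CPM snap-frozen against 43.8 ± 0.530 CPM fresh. Fkbp5, which glucocorticoids induce, was at 48.9 ± 1.12 CPM snap-frozen against 84.6 ± 0.872 CPM fresh, whereas Tsc22d3, another glucocorticoid target, was at 92.4 ± 0.891 CPM snap-frozen against 65.8 ± 1.63 CPM fresh. The clock output genes Dbp and Nr1d2 rose to 109 ± 0.879 and 163 ± 4.11 CPM, against 72.8 ± 0.807 and 112 ± 2.31 CPM in fresh tissue. Of 14 inflammatory genes, 5 passed the filter, of which 4 rose and 1 fell, and their summed level was 23.8 to 26.8 CPM in snap-frozen and 18.9 to 21.8 CPM in fresh libraries.

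Housekeeping groups lay near the middle of all genes. Respiratory chain genes rose in 26 and fell in 14 of 83 cases (median 0.02), cytosolic ribosomal protein genes in 21 and 19 of 81 (median 0.00) and mitochondrial ribosomal protein genes in 13 and 13 of 78 (median -0.01). Library totals moved the 3 medians to 0.14, 0.12 and 0.11, with 57 higher and 4 lower among respiratory chain, 58 higher and 3 lower among cytosolic ribosomal and 32 higher and 3 lower among mitochondrial ribosomal genes, so that no direction is given for these groups. Proteasome genes fell in 12 and rose in 3 of 37 cases (median -0.04), and library totals gave 17 higher and 5 lower (median 0.07). Across genes, the log2 fold change had Spearman's rho of -0.13 with transcript length, 0.02 with GC content and -0.34 with mean level, over genes that are not independent.

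The same contrast in cortex, which shares no library with hippocampus, gave a test of whether a change differed between the tissues. In cortex 4916 of 14470 genes were called (34%), 2376 higher (16.4%) and 2540 lower (17.6%). Of these, 102 passed 1 on the log2 scale (0.705%): 34 rose (0.235%) and 68 fell (0.47%). The change differed between the tissues in 8152 of 14827 genes (55%) in a test of the difference itself, 4202 higher (28.3%) and 3950 lower (26.6%) in hippocampus. That split was 5550 and 2649 with library totals, 3701 and 4338 without snap-frozen hippocampus replicate 2, and 3695 and 4373 without replicate 3 of that group. The difference was over 1 on the log2 scale in 1550 (10.5%), 1135 higher (7.65%) and 415 lower (2.8%). Tcf7l2 in cortex was at 4.21, 4.47 and 4.26 CPM in snap-frozen and 4.01, 3.76 and 4.64 CPM in fresh libraries, and the difference between the tissues was 4.90 on the log2 scale (adjusted p = 4.59e-25, edgeR). Slc17a6 was at 37.2, 37.2 and 40.8 CPM in snap-frozen and 30.9, 33.8 and 34.3 CPM in fresh cortex (0.22 ± 0.06; difference 4.29). Tfap2d was at 3.06, 2.50 and 3.23 CPM in snap-frozen and 3.07, 2.76 and 3.09 CPM in fresh cortex. The states overlapped in cortex for Tcf7l2 and Tfap2d, and for Slc17a6 they did not. Of 14 excitatory neuron markers 4 rose and 2 fell in cortex (median 0.03), and the difference between tissues passed, lower in hippocampus, in 14 of 14. The same test passed, higher in hippocampus, in 17 of 18 endothelial, 18 of 18 oligodendrocyte and 10 of 13 meningeal fibroblast markers. In snap-frozen cortex itself, 6 endothelial markers rose and 0 fell (median 0.12), 4 oligodendrocyte markers rose and 4 fell (median -0.03), and 1 meningeal marker rose and 8 fell (median -0.36).

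Some genes moved in opposite directions. Among the 14218 genes tested in both tissues, 1534 changed the same way in both, 17.3% of those called in hippocampus and 31.4% of those called in cortex, and 1829 changed in opposite ways. Of the 1534, 560 were higher and 974 lower in both. Of the genes higher in hippocampus 12.6% were higher in cortex, where 16.4% of all genes tested were higher. Of the genes lower in hippocampus 22.1% were lower in cortex, where 17.6% of all genes tested were lower. No shared response is read from the total of 1534. Of the 12 dentate markers, 6 rose and 1 fell in snap-frozen cortex (median 0.19), and the difference between tissues passed, lower in hippocampus, in 9. Dsp, desmoplakin of granule cells, was at 34.6 ± 1.86 CPM snap-frozen against 50.8 ± 1.89 CPM fresh in hippocampus and at 3.80 ± 0.336 CPM snap-frozen against 0.512 ± 0.0349 CPM fresh in cortex. Prox1 was at 23.1 ± 0.604 CPM snap-frozen against 14.4 ± 0.125 CPM fresh in cortex and Slc9a4 at 3.47 ± 0.480 CPM snap-frozen against 0.807 ± 0.123 CPM fresh, each higher in snap-frozen cortex. Snhg11, a long noncoding RNA of neurons, was higher in snap-frozen hippocampus at 2304 ± 48.3 CPM snap-frozen against 1541 ± 10.7 CPM fresh and lower in snap-frozen cortex at 713 ± 34.1 CPM snap-frozen against 1330.4 ± 24.8 CPM fresh.

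**Figure D4:**
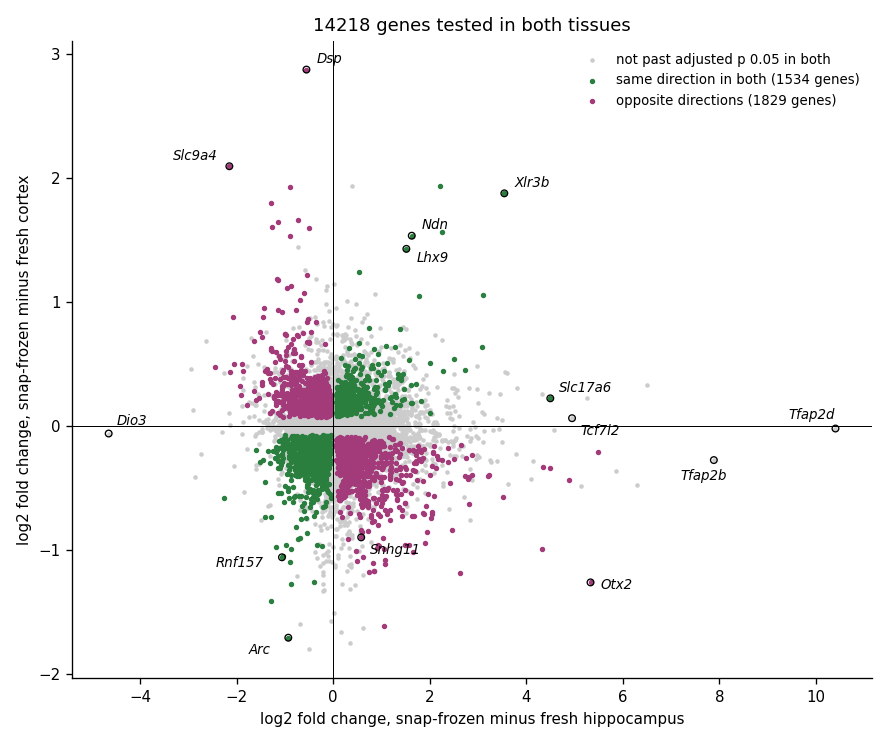
Log2 fold change of snap-frozen against fresh hippocampus (horizontal) and cortex (vertical) for the 14218 genes tested in both tissues, with 1 point per gene; green points were called in the same direction in both and purple points in opposite directions. The horizontal range reaches 10.41 at Tfap2d, while Ndn, Lhx9 and Xlr3b are among the genes that rose by over 1 in both.

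A small group of genes changed alike in both tissues. At over 1 on the log2 scale in both, 10 genes moved the same way and 12 opposite ways. Ndn, an imprinted gene of neurons (ENSMUSG00000033585.5, chromosome 7), was at 312, 316 and 327 CPM in snap-frozen and 105, 102 and 102 CPM in fresh hippocampus, and at 271, 272 and 269 CPM in snap-frozen and 91.2, 95.9 and 93.8 CPM in fresh cortex. No library of one state overlapped the other state in either tissue. Ide, the insulin-degrading enzyme, was at 55.6, 51.9 and 52.6 CPM in snap-frozen and 83.8, 76.3 and 82.9 CPM in fresh hippocampus, and at 51.8, 52.3 and 54.6 CPM in snap-frozen and 84.2, 76.7 and 82.9 CPM in fresh cortex. Rnf157, a ubiquitin ligase of neurons, was lower in both by a like amount (-1.06 ± 0.02 in hippocampus and -1.06 ± 0.03 in cortex), and Traip, a ubiquitin ligase of genome stability, had -1.18 ± 0.05 and -0.98 ± 0.06. Xlr3b, an X-linked gene whose reads are shared with near copies, was at 14.4 ± 0.739 CPM snap-frozen against 1.23 ± 0.326 CPM fresh in hippocampus and 6.01 ± 0.0817 CPM snap-frozen against 1.63 ± 0.492 CPM fresh in cortex. The LIM factor Lhx9 was at 61.8 ± 0.825 CPM snap-frozen against 21.6 ± 2.68 CPM fresh in hippocampus and 2.66 ± 0.446 CPM snap-frozen against 0.983 ± 0.232 CPM fresh in cortex.

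Immediate early genes fell in cortex as well, with 20 of 36 lower and 3 higher in snap-frozen tissue (median -0.24). Excitatory neuron markers had a median of 0.03 there, and postsynaptic scaffold genes fell in 14 and rose in 2 of 20 cases (median -0.15). The part of neuronal RNA in these falls was not tested. Arc was at 43.9, 40.6 and 40.6 CPM in snap-frozen and 138, 134 and 137 CPM in fresh cortex, a larger fall than in hippocampus (-1.71 ± 0.04; difference 0.79, adjusted p = 1.03e-16, edgeR). Nr4a1 was at 36.9, 37.2 and 36.2 CPM in snap-frozen and 68.7, 69.0 and 70.3 CPM in fresh cortex (-0.91 ± 0.05), and Fosb and Junb had log2 fold changes of -0.61 ± 0.08 and -0.57 ± 0.05 there. Fos was at 11.6, 10.5 and 10.7 CPM in snap-frozen and 21.5, 22.7 and 22.1 CPM in fresh cortex (-1.01 ± 0.07), opposite to its rise in hippocampus, and the difference was 1.49 (adjusted p = 2.37e-14). Npas4 was at 15.3 ± 0.755 CPM snap-frozen against 30.0 ± 1.09 CPM fresh in cortex (-0.97 ± 0.06), where the difference between tissues was 0.74. Egr1, which did not pass in hippocampus, was at 218 ± 17.2 CPM snap-frozen against 310.1 ± 7.42 CPM fresh in cortex, and Jun, which fell in hippocampus, at 55.8 ± 4.02 CPM snap-frozen against 50.4 ± 1.62 CPM fresh. For Arc, Nr4a1, Fos and Npas4 every snap-frozen cortex library lay below every fresh one.

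**Figure D5:**
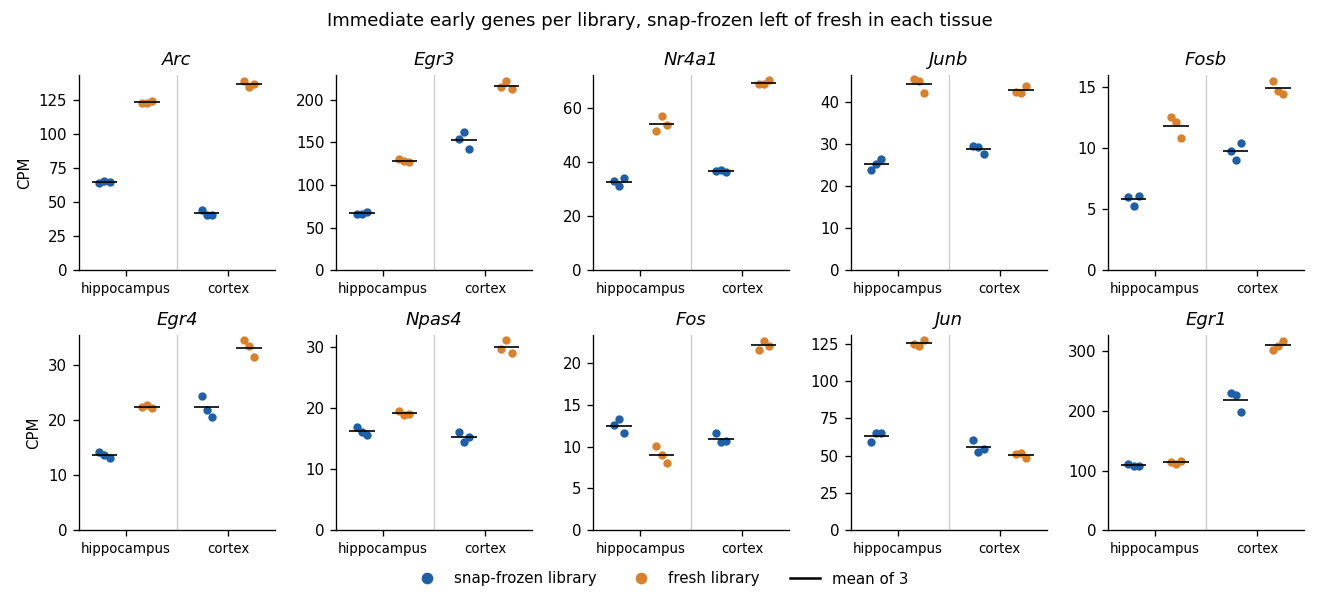
CPM of 10 immediate early genes in each snap-frozen and fresh library of hippocampus (left of the line) and cortex (right of it); points are libraries and bars are means of 3. Arc, Egr3, Nr4a1, Junb, Fosb, Egr4 and Npas4 are lower in the snap-frozen libraries of both tissues, and Fos is higher in snap-frozen hippocampus and lower in snap-frozen cortex.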

How the data were processed

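Poly(A) RNA of hippocampus and cortex was sequenced from stranded libraries, per the labels' protocols. The authors deposited estimated counts per gene, 1 column per library, not scaled to depth. HISAT2 2.0.4 and the build GRCm38.p6 are named in the submitters' processing notes, whereas the sources used here do not name the counter, its strand setting or its annotation. Estimated counts were rounded, and genes whose deposited values were not whole in a library are given as sharing reads.

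Counts were tested with edgeR 4.0.16 (R 4.3.3): TMM factors, filterByExpr, the quasi-likelihood test on the 9 libraries of a tissue and Benjamini-Hochberg adjustment at 0.05 over all genes tested. The difference between tissues was tested over all 18 libraries. The SE was derived from the fold change and its F statistic. Scripts were tested on simulated data. Levels of genes at 3 counts or fewer are given with exact 95% intervals for counting error only. No pair of hippocampus libraries of a group agreed within sampling noise, so that none is a copy of another. Each was counted as 1 replicate, though this does not show that the libraries are from separate animals.

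Named genes were the 10 largest rises and falls among called genes with at least 5 CPM in the higher group and libraries that do not overlap, up to 4 called members of each list by p, markers given whatever their result, and the genes most alike or most opposed in the tissues. Other genes were named after their values were seen. Members and lists were chosen with earlier results of these data known. Promoters came from a RefSeq table of build GRCm38.p6. Alternatives were DESeq2 1.42.0, limma-voom (limma 3.58.1), other scalings and filters, offsets for GC content and length, larger assumed variation, a replicate block and leaving out each library. Same-numbered snap-frozen and fresh libraries did not deviate together. Xist, Malat1 and mitochondrially encoded genes were not analysed here.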

Additional observations from a re-analysis of the deposited data

Results flagged for a closer look

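The change between snap-frozen and fresh tissue differed between hippocampus and cortex, by edgeR's quasi-likelihood test of the difference over the 18 libraries, in each gene listed here. Values are the hippocampal minus the cortical log2 fold change. Such a difference can arise from a change in either tissue.

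Among the 10 largest rises in hippocampus the difference was 10.44 for Tfap2d, 10.32 for Barhl1, 8.83 for Shox2, 8.18 for Tfap2b and 5.98 for Mab21l2. For the others of the 10, Irx2, Pou4f1, Pou4f2, Gata3 and Sox14, no difference is listed here. Tcf7l2, a thalamic marker, had 4.90. Tfap2d, Barhl1 and Shox2 had 3 or fewer counts over the fresh hippocampus libraries, so that their fitted values depend on the prior count. The value for Barhl1 had an SE of 3.02, and the gene did not pass the filter in cortex alone. Sfrp5, a secreted Wnt inhibitor, had 6.78. Among the largest falls it was -4.58 for Dio3, -4.23 for Slc9a4, -3.40 for Krt2, -2.94 for Popdc3, -2.90 for Cpne7, -2.56 for Crym, -2.55 for Grp, -2.26 for Itgbl1, -2.12 for Oxtr and -1.67 for Col6a1. Dsp and Spink8, which fell by less in hippocampus (-0.55 and -1.28) and rose in cortex (2.87 and 1.80), had differences of -3.41 and -3.07.

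Among neuronal markers the difference was -1.38 for Slc17a7, -1.21 for Prox1, -0.31 for Wfs1 and 0.44 for Gad1. Among glial, vascular and blood markers it was 0.84 for Aqp4, -0.43 for Gfap, 0.67 for Mbp, -0.25 for Cx3cr1, 1.00 for Cldn5, 1.54 for Ttr and 0.81 for Hba-a1, which shares reads. Among immediate early genes it was 1.49 for Fos, 0.79 for Arc, 0.74 for Npas4, 0.45 for Egr1 and 0.21 for Nr4a1. Among stress and hormone responses it was -0.88 for Fkbp5, -0.31 for Hspa1a and -0.16 for Hspa5.

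Genes that changed alike in both tissues differed in size as well. The difference was 1.68 for Xlr3b, 0.24 for Trank1, -0.19 for Traip, 0.11 for Ndn and 0.093 for Zwint.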

How the results depend on the processing

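No called change of a named gene turned its sign under any alternative run. The count of called genes, 9036 in hippocampus, 4916 in cortex, 8152 for the difference between tissues and 1534 changed the same way in both, rests on the small spread between libraries. With an assumed coefficient of variation of 10% the counts were 4953, 421, 3770 and 80, and with 20% they were 2181, 46, 1254 and 11. Tested against a 1.5-fold change, 1843 hippocampal genes passed. Leaving out 1 library at a time gave 8542 to 8625 genes in hippocampus, 1241 to 1293 of them over 1 on the log2 scale, 3841 to 4709 in cortex, 7714 to 8068 for the difference and 1200 to 1543 the same way in both. A fit with the replicate number as a block gave 9000, 1230, 4947, 8148 and 1542 in that order. Same-numbered libraries deviated with r = 0.0067, 0.00912 and -0.0105 over 6506 genes. As the libraries of a group differ by little more than counting noise, this cannot show whether the numbers pair the samples.

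Of 4841 fits for named genes, 150 lost a call and 3 gained one. Outside the assumed variation, calls were lost for Fam183b, Fgfbp3, Foxj1, Hba-a2, Hbb-bs, Npas4, P2ry12 and Stard5. Egr1 gained a call without a filter and without fresh replicate 2, and Ramp3 with library totals. Of 972 list medians, 180 moved. Under library totals every median rose by about the shift of all genes, 0.12, and medians near 0 changed sign, among them those of the proteasome, glycolysis, heat shock, cortical layer and protocadherin lists. GC and length offsets gave 4082 higher and 4218 lower for the difference between tissues.

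The depth of 16632142 to 17022164 counts puts 3 counts at 0.172 to 0.184 CPM. The filter on low counts left genes above that level untested as well. Among the patterning families, members not tested averaged up to 0.537 CPM in snap-frozen tissue. The labels name no batch, and libraries of a state may share handling, which cannot be told apart from the state.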

Other observations

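Further gene groups held members that moved in opposite directions. Of 16 cortical layer markers 7 rose and 8 fell in snap-frozen hippocampus (median -0.06, 0.06 with library totals). Foxp2, a forkhead factor of deep cortical layers that is also strong in thalamus and striatum, was at 33.3, 35.8 and 33.9 CPM in snap-frozen and 0.981, 0.675 and 0.614 CPM in fresh libraries. Etv1, an ETS factor of layer 5 neurons, was at 69.3 ± 0.788 CPM snap-frozen against 153 ± 5.33 CPM fresh. Tbr1, a factor of cortical projection neurons, was at 21.9 ± 0.290 CPM snap-frozen against 40.5 ± 0.997 CPM fresh. Of 13 striatal markers 6 rose and 2 fell. Drd2, a dopamine receptor, was at 19.5, 20.7 and 20.8 CPM in snap-frozen and 2.57, 3.19 and 2.52 CPM in fresh libraries, and the opioid peptide precursor Penk at 56.9 ± 0.385 CPM snap-frozen against 24.5 ± 1.33 CPM fresh. Neither gene overlapped between the groups. Tac1, the substance P precursor, was at 26.1 ± 0.798 CPM snap-frozen against 7.71 ± 0.960 CPM fresh.

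Metabolic and adhesion genes held members of both kinds. Of 16 glycolytic genes 11 fell and 3 rose (median -0.07), or 8 higher and 7 lower with library totals (median 0.05). The lactate dehydrogenase subunits Ldha and Ldhb were at 215 ± 4.43 and 481 ± 10.6 CPM in snap-frozen and 316 ± 4.11 and 325 ± 5.39 CPM in fresh tissue, 1 lower and 1 higher. Of 22 cholesterol genes 11 rose and 3 fell: Insig1, which restrains sterol synthesis, was at 80.9 ± 1.42 CPM snap-frozen against 51.1 ± 2.47 CPM fresh. Among 56 clustered protocadherins, many of which share reads, 8 rose and 19 fell, or 15 higher and 14 lower with library totals. Pcdhgc4 was at 42.0 ± 1.29 CPM snap-frozen against 20.5 ± 1.30 CPM fresh and its neighbour Pcdhgc5 at 108 ± 1.96 CPM snap-frozen against 212 ± 1.81 CPM fresh.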
